A study of Mus musculus with 9 samples.

Results

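Chromatin regulators are the proteins that move nucleosomes, write, erase and read chemical marks on histones, and methylate DNA. Their genes are the hosts described here: genes whose transcripts gave circular RNAs (circRNAs, closed rings made when the end of an exon is spliced back to an exon start upstream of it) in mouse liver. The members were chosen by gene name alone, from name families such as Arid, Smarc, Kmt, Kdm, Setd, Chd, Brd, Phf, Kat, Hdac and Dnmt, plus Ash1l, Bptf, Crebbp, Ep300 and Ep400, with Arid1a left out. This gave 79 host genes of 3918 hosts or gene groups in the table (2.02%), and 412 circRNAs of 11312 (3.64%). By class, 392 of the 412 circRNAs were exonic and 20 intronic.

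All mice were wild-type C57 BL6, 8 weeks old and about 20 g, and liver was taken 6 hours after injection. The dmPGE2+APAP group received 300 µg/kg dmPGE2, a stable analogue of prostaglandin E2, 1 hour before 500 mg/kg acetaminophen (APAP), the APAP group received the same dose of acetaminophen without dmPGE2, and the control group received saline, with 3 libraries per group. No label ties a library to an animal, and p-values therefore reflect how much these libraries vary. The control count columns carry a code that no label explains and were taken as the saline group because the other 2 groups' columns are named. The design asks whether circRNA levels differ after an acetaminophen overdose and whether dmPGE2 given beforehand changes them.

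An acetaminophen overdose injures hepatocytes around the central vein through a reactive metabolite, and the surviving cells switch on stress and repair genes. Chromatin regulators work in complexes: SWI/SNF and other remodellers use ATP to slide or evict nucleosomes, histone methyltransferases and acetyltransferases write marks, demethylases and deacetylases remove them, and proteins with bromodomains or PHD fingers bind marked histones. A circRNA from such a gene carries some of its exons and, being closed, has neither cap nor poly(A) tail.

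Every level and fold change below rests on reads across back-splice junctions, which exist in the ring and not in the linear mRNA. Each ring has 1 junction, so the counts need no correction for length, and CPM is the count per 1000000 back-splice reads of the library. The 8 libraries other than control 3 held 69268 to 154449 back-splice reads. Control 3 held 4362, 25.7-fold below their median, so 1 read there equals 229 CPM. It was kept in the tests, and values without it stand beside results that rest on it. At 19 chromatin regulator circRNAs whose reads could be split in all libraries, control 3 held 90 back-splice reads and 1714 other reads at the same sites, against 971 to 1934 back-splice reads and 945 to 1110 other reads in the other 8 libraries. Among liver marker lists, 18 of 20 hepatocyte genes had circRNAs, with summed levels of 21715 to 25967 CPM in the 8 libraries and 43787 CPM in control 3. The endothelial list (7 of 12 genes) summed to 780 to 2135 CPM over all 9 libraries, and the lists for Kupffer cells and macrophages, neutrophils and lymphocytes, stellate cells and fibroblasts, and cholangiocytes had 1 of 11, 3 of 13, 1 of 12 and 1 of 8 genes with circRNAs and stayed at or below 975 CPM. Defining markers such as Clec4f, Ptprc, Col1a1 and Krt19 had no listed circRNA. In whole liver, fewer cells of a type and less RNA per cell cannot be told apart.

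The junctions of the most abundant coding rings show what was counted. Each line gives the last 24 bases of the ring's final exon in lower case and the first 24 bases of its first exon in capitals, on the strand of the gene, read from the GENCODE M21 transcript of build GRCm38. Smarcc1 is added because it had the smallest unadjusted p among the host genes.
Chd2 novel_circ_0013193: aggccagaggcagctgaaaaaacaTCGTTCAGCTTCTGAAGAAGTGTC
Arid1b novel_circ_0005097: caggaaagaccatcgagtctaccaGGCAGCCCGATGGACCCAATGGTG
Ehmt1 mmu_circ_0000992: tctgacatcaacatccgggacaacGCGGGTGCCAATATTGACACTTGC
Ash1l mmu_circ_0001148: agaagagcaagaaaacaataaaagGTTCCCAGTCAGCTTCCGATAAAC
Chd2 novel_circ_0013188: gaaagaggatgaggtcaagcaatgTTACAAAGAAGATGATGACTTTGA
Smarca2 novel_circ_0006051: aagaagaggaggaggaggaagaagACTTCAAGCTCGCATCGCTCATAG
Arid5b novel_circ_0000456: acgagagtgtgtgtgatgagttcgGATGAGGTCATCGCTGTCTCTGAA
Ehmt1 novel_circ_0008347: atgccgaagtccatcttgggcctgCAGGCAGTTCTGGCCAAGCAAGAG
Smarcc1 novel_circ_0014151: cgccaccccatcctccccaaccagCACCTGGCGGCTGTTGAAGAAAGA

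The 2 Chd2 rings lie on the minus strand at chr7:73514090-73519708 (exons 3 to 5 of 39) and chr7:73501909-73503514 (exons 8 and 9). The Arid1b ring lies on the plus strand at chr17:5040580-5127024 and runs over exons 2 to 4 of 20. The Ehmt1 rings are on the minus strand at chr2:24813527-24825067 (exons 16 to 18 of 27) and chr2:24884146-24887069 (exons 2 and 3). The Ash1l ring, at chr3:89001773-89007877 on the plus strand, joins exons 4 and 5 of 28, and the Smarca2 ring, at chr19:26647021-26654511 on the plus strand, runs over exons 6 to 9 of 33. The Arid5b ring is on the minus strand at chr10:68186026-68243229 with exons 3 and 4 of 10, and the Smarcc1 ring on the plus strand at chr9:110213509-110222156 with exons 25 and 26 of 28. All 9 lie inside the coding sequence. Only the ends are given by the junction reads, and the exons between the ends are taken from the annotation.

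As a whole, the 79 hosts took close to the same share of circRNA reads in every library. They held 2.95%, 3.17% and 3.07% of back-splice reads in dmPGE2+APAP livers, 2.86%, 3.02% and 3.01% in APAP livers, and 2.96%, 3.20% and 2.98% in control livers. The means were 3.06% ± 0.108 in dmPGE2+APAP, 2.96% ± 0.0932 in APAP and 3.05% ± 0.134 in control (SD, n = 3 each), so the group means lie within the range of single libraries, also with the mean of 3.08% that control has without control 3. The 27592 reads were concentrated: the 5 highest hosts held 46.6% and the 10 highest circRNAs 37.1%.

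**Figure D1:**
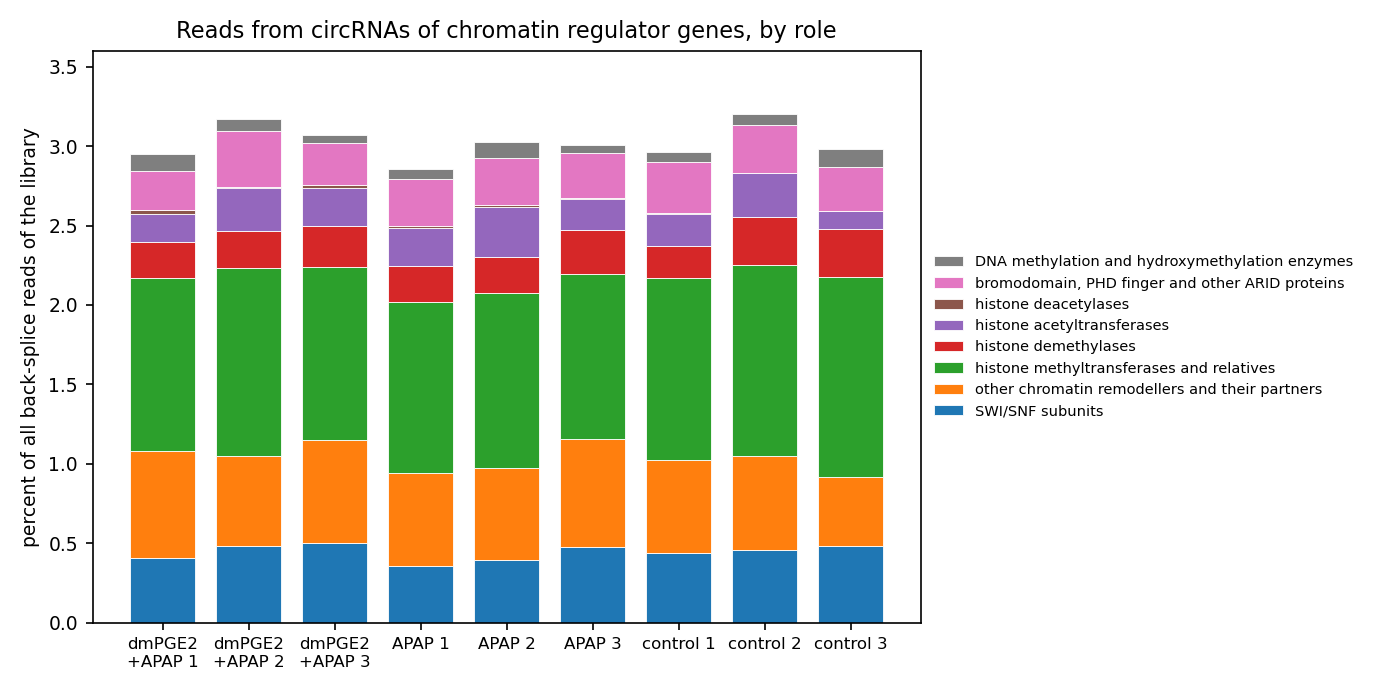
Percent of all back-splice reads of each library (y axis) from circRNAs of chromatin regulator genes, stacked by the role of the host gene, for the 3 dmPGE2+APAP, 3 APAP and 3 control libraries (x axis). The stacks end between 2.86% and 3.20%, and histone methyltransferases form the tallest segment in every library.

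Histone methyltransferases and their relatives were the largest role, with 16 hosts, 140 circRNAs and 10213 reads (37.0% of the reads of all 79 hosts). Their summed level averaged 11201 ± 515 CPM in dmPGE2+APAP, 10738 ± 299 CPM in APAP and 12013 ± 588 CPM in control. Ehmt1, which methylates histone H3 lysine 9 together with its partner Ehmt2, led the whole set with 33 circRNAs. Its summed level was 3634, 4682 and 3850 CPM in dmPGE2+APAP, 3745, 3965 and 3956 CPM in APAP, and 4053, 3901 and 2522 CPM in control. The value of 2522 CPM, in control 3, rests on 11 reads, and the other 8 libraries overlap across groups and differ by at most 1.29-fold.

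Ash1l, a methyltransferase for histone H3 lysine 36, had 22 circRNAs and stood differently. It measured 1966, 2210 and 2300 CPM in dmPGE2+APAP, 2181, 2101 and 2166 CPM in APAP, and 2687, 2878 and 2980 CPM in control. All 6 libraries of treated mice lay below all 3 control libraries, and the 2 treated groups overlapped each other. The difference did not pass the edgeR quasi-likelihood test with Benjamini-Hochberg adjustment over all hosts. The log2 fold change was -0.31 (95% interval -0.86 to 0.24) for APAP against control and -0.28 (-0.82 to 0.27) for dmPGE2+APAP against control. With control 3 left out, the log2 fold changes were -0.42 and -0.40. Their unadjusted p by edgeR were then 0.025 and 0.034, and neither passed after adjustment.

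Ezh2, the catalytic subunit of Polycomb repressive complex 2, had 6 circRNAs. It was at 1610, 1302 and 1333 CPM in dmPGE2+APAP, 1500, 1279 and 1371 CPM in APAP, and 855, 1631 and 459 CPM in control. Control held both the highest and the lowest libraries, so the treated groups lie inside its range. Nsd2 and Nsd1, which dimethylate histone H3 lysine 36, averaged 724 and 422 CPM over the 8 libraries other than control 3. Nsd1 had 448, 424 and 514 CPM in dmPGE2+APAP, 230, 429 and 318 CPM in APAP and 499, 515 and 1376 CPM in control, with APAP below control throughout.

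Among remodellers outside SWI/SNF (13 hosts, 70 circRNAs, 5548 reads), Chd2, an ATP-dependent remodeller, held most reads. Its 20 circRNAs summed to 3941, 4006 and 4138 CPM in dmPGE2+APAP, 3442, 3664 and 4677 CPM in APAP, and 3768, 3993 and 2293 CPM in control. The groups overlap, and the highest library exceeded the lowest by 1.36-fold over the 8 libraries. Ep400, the ATPase of the Tip60-p400 complex, averaged 624 CPM over those 8, Chd7, a remodeller bound at enhancers, 361 CPM, and Baz2b, a bromodomain partner of ISWI-type ATPases, 323 CPM. Chd7 reached 765 CPM in APAP 3 and stayed between 235 and 377 CPM in the other 7.

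SWI/SNF subunits (7 hosts, 41 circRNAs, 3990 reads) were led by Arid1b, a DNA-binding subunit that defines the BAF form of the complex. It measured 2149, 2593 and 2526 CPM in dmPGE2+APAP, 1390, 2037 and 1992 CPM in APAP, and 2214, 2331 and 3210 CPM in control. All APAP libraries lay below all libraries of both other groups. The edgeR log2 fold change was -0.35 (95% interval -0.91 to 0.21) for APAP against control and 0.46 (-0.08 to 1.00) for dmPGE2+APAP against APAP, and neither passed. With control 3 left out, these were -0.39 and 0.45. Their unadjusted p by edgeR were then 0.056 and 0.017, and adjusted p was at least 0.909.

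Smarca2 (BRM), 1 of the 2 alternative ATPases of SWI/SNF, had 20 circRNAs at 1593, 2028 and 2204 CPM in dmPGE2+APAP, 1684, 1261 and 2050 CPM in APAP, and 1658, 1716 and 1146 CPM in control. The groups overlap. Smarca4 (BRG1), the other ATPase, had 1 circRNA with 83 reads in all and was listed at 0 in dmPGE2+APAP 2 and control 1. Over the 8 libraries, ring levels averaged 1774 CPM for Smarca2 and 101 CPM for Smarca4. Arid2, the DNA-binding subunit of the PBAF form, had 1 circRNA, averaging 186 CPM there, and was listed at 0 in APAP 3 and control 3.

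Acetyltransferases (6 hosts, 29 circRNAs, 2168 reads) were led by Kat6b, a MYST-family enzyme. It was at 523, 646 and 540 CPM in dmPGE2+APAP, 663, 1087 and 462 CPM in APAP, and 732, 1416 and 459 CPM in control. Both highest values, in APAP 2 and control 2, include a ring not seen in the other libraries. Crebbp and Ep300, the paired coactivator acetyltransferases CBP and p300, averaged 639 and 570 CPM over the 8 libraries. Crebbp measured 556, 646 and 540 CPM in dmPGE2+APAP, 736, 813 and 736 CPM in APAP, and 473, 616 and 0 CPM in control, so all APAP libraries exceeded all others. Its edgeR log2 fold change was 0.65 (95% interval -0.26 to 1.56) for APAP against control and -0.36 (-1.23 to 0.50) for dmPGE2+APAP against APAP, and neither passed. The control mean in the first of these includes the 0 of control 3, where 1 read equals 229 CPM.

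Demethylases (14 hosts, 59 circRNAs, 2208 reads) were led by Kdm2a, an eraser of histone H3 lysine 36 methylation, at 581, 515 and 880 CPM in dmPGE2+APAP, 525, 585 and 707 CPM in APAP, and 758, 939 and 1376 CPM in control. APAP lay below control without overlap, while dmPGE2+APAP overlapped both. Kdm5c, an X-linked eraser of histone H3 lysine 4 methylation, varied more, at 290, 323 and 322 CPM in dmPGE2+APAP, 423, 329 and 1083 CPM in APAP, and 142, 439 and 459 CPM in control. Its highest library, APAP 3, stood 7.60-fold above its lowest, control 1. Kdm1a (LSD1) and Kdm4c averaged 283 and 269 CPM over the 8 libraries.

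Bromodomain and PHD finger proteins, which bind marked histones, were grouped with the remaining ARID proteins, which bind DNA (18 hosts, 59 circRNAs, 2701 reads). The group was led by Arid5b, a DNA-binding ARID protein, which measured 1186, 1322 and 993 CPM in dmPGE2+APAP, 939, 895 and 1256 CPM in APAP and 1081, 1054 and 2063 CPM in control. Phf3, Phf14 and Phf21a followed at means of 398, 365 and 192 CPM over the 8 libraries. Phf3 was low in APAP 3, with 4 reads (57.7 CPM) against 277 to 737 CPM in the other 7. Among DNA methylation enzymes, Dnmt3a, which sets new DNA methylation, had 7 circRNAs at 1020, 737 and 523 CPM in dmPGE2+APAP, 598, 968 and 491 CPM in APAP, and 660, 723 and 1146 CPM in control, and Dnmt3b had 5 reads in dmPGE2+APAP 1 alone. No Tet gene had a listed circRNA. Histone deacetylases were the scarcest role, with 3 hosts (Hdac4, Hdac8 and Hdac5) and 97 reads in all.

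**Figure D2:**
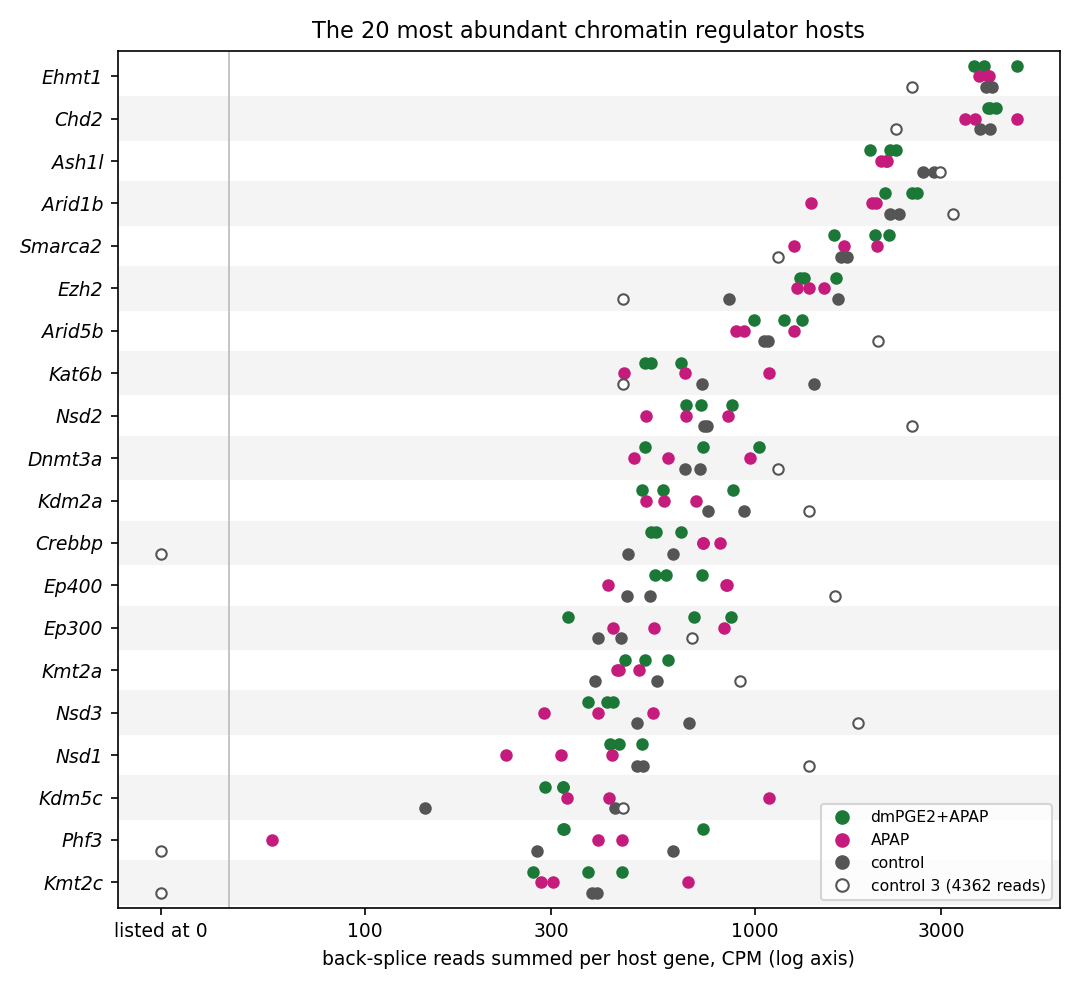
Back-splice reads summed per host gene in CPM (log x axis) for the 20 chromatin regulator hosts with the highest mean over the 8 libraries other than control 3. Each point is 1 library, coloured by group, with control 3 (4362 reads) drawn open and values of 0 set left of the grey line. Points of the 3 groups overlap for most hosts, Ash1l has all treated libraries below control, and Arid1b has APAP lowest.

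Of the 79 hosts, 63 reached 5 reads or more in 3 or more of the 9 libraries and entered the test. The other 16 had at most 28 reads in all. Of the 412 circRNAs, 162 passed the same rule and 250 did not. A host is seen wherever any of its rings is, and 41 of 79 hosts had reads in all 8 libraries other than control 3. Of the circRNAs, 54 (13.1%, as over all circRNAs of the table) did, and 164 (39.8%, against 38.7% over all) had reads in 1 of the 8 only.

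In APAP against control, 0 of 63 hosts passed the edgeR quasi-likelihood test at an adjusted p of 0.05 (over all 2355 hosts tested, 0.34% passed), and the lowest adjusted p was 0.897. At an unadjusted p under 0.05, 0 of the 63 were called, where 5.27% of all hosts were. The 63 had a median log2 fold change of 0.21 and all hosts 0.13. Without control 3, these medians were 0.02 and -0.03, so the sign of the overall shift rests on control 3. CPM ranges of the 3 APAP and 3 control libraries did not overlap for 6 hosts (9.52%, against 10.4% over all hosts). These were Crebbp and Setd3, higher in APAP, and Arid1b, Ash1l, Kdm2a and Nsd1, lower in APAP. The share is close to that of all hosts, and Setd3 entered the test through its APAP reads alone.

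In dmPGE2+APAP against APAP, 0 of 63 hosts passed (0.127% over all hosts), with a lowest adjusted p of 0.468 by edgeR. Unadjusted p was under 0.05 for 3 hosts (4.76%, against 2.72% over all), Smarcc1, Brwd3 and Setd3, each lower in dmPGE2+APAP. All 3 had 0 reads in every dmPGE2+APAP library and entered the test through other groups. Lower in dmPGE2+APAP was thus the only direction open to them. The median log2 fold change was 0.06 for the 63 hosts and 0.04 for all. CPM ranges did not overlap for 8 hosts (12.7%, against 10.1% over all): Arid1b, Arid4a and Baz1a higher, and Crebbp, Kdm5c, Phf8, Setd3 and Smarcc1 lower in dmPGE2+APAP. All of these 8 other than Arid1b, Crebbp and Kdm5c had at most 102 reads in all. Baz1a entered the test through its dmPGE2+APAP reads alone.

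In dmPGE2+APAP against control, 0 of 63 hosts passed (0.17% over all), with a lowest adjusted p of 0.439 by edgeR, and 1 host, Smarcc1, had an unadjusted p under 0.05 (1.59%, against 4.2% over all). The median log2 fold changes were 0.12 for the 63 hosts and 0.19 for all hosts, and 0.06 and 0.03 without control 3. Ranges did not overlap for 6 hosts (9.52%, against 11.4% over all). Those were Baz1a, Kat6a and Kat7, higher in dmPGE2+APAP, and Ash1l, Chd7 and Nsd3, lower. Baz1a entered the test through its dmPGE2+APAP reads alone. The joint test of any difference among the 3 groups passed 0 of 63 (0.382% over all), with 2 hosts, Setd3 and Smarcc1, at an unadjusted p under 0.05 (3.17%, against 3.18% over all). The comparisons with control share its libraries, as both with APAP share those.

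**Figure D3:**
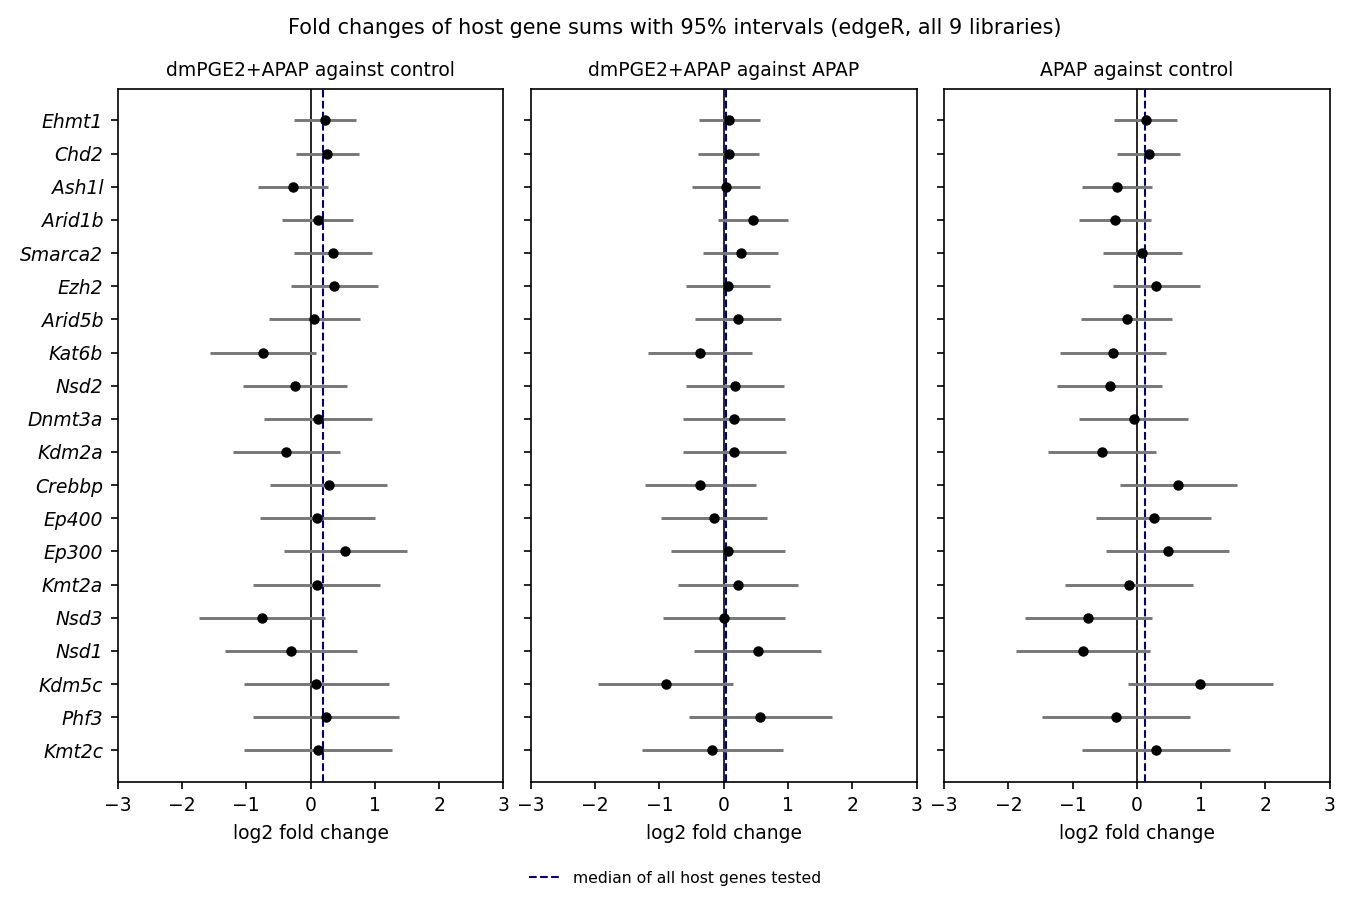
Log2 fold changes (x axis) of back-splice reads summed per host gene for the 20 most abundant chromatin regulator hosts, with 95% intervals from edgeR over all 9 libraries, for dmPGE2+APAP against control, dmPGE2+APAP against APAP and APAP against control. The dashed line is the median of all 2355 hosts tested. Every interval shown includes 0, and the 2 most abundant hosts, Ehmt1 and Chd2, have the narrowest.

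The 95% intervals bound the size of a difference. For Ehmt1, the 95% interval of the log2 fold change ran from -0.35 to 0.62 in APAP against control, from -0.39 to 0.57 in dmPGE2+APAP against APAP and from -0.26 to 0.71 in dmPGE2+APAP against control. Chd2 had intervals of -0.30 to 0.67, -0.40 to 0.55 and -0.23 to 0.75 in the same order. Both hosts thus had changes of 2-fold or more outside the interval in every comparison. The whole interval lay within 2-fold for 8 of 61 hosts in APAP against control, 13 of 60 in dmPGE2+APAP against APAP and 8 of 59 in dmPGE2+APAP against control, leaving out hosts with a group listed at 0. For the others the interval reached past 2-fold in at least 1 direction.

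Of the hosts with the 4 smallest p in a comparison, Kdm5c, Nsd1, Kdm4c and Kat6b had 264 to 711 reads each. Unadjusted edgeR p for APAP against control was 0.086 for Kdm5c, 0.116 for Nsd1 and 0.118 for Kdm4c, for dmPGE2+APAP against APAP it was 0.093 for Kdm5c, and for dmPGE2+APAP against control it was 0.081 for Kat6b. Without control 3, the Kat6b p by edgeR was 0.00925 (adjusted p 0.931), with a log2 fold change of -0.95 against -0.73 with it. Kat6b in control 2 includes mmu_circ_0000505, a ring listed at 0 in control 1 and in every dmPGE2+APAP library. How far the Kat6b values rest on that ring was not tested. The other 4 were scarce. Smarcc1, a core scaffold subunit of SWI/SNF, had 0, 0 and 0 reads in dmPGE2+APAP, 9, 4 and 19 reads in APAP, and 27, 14 and 0 reads in control. It was thus seen in 5 of the 6 libraries without dmPGE2, the exception being control 3, and in none with it. Counting error alone allows up to 24.9, 30.3 and 26.1 CPM at a count of 0 in the 3 dmPGE2+APAP libraries. There, APAP had 82.8, 36.5 and 274 CPM and control 175 and 108 CPM besides the 0 of control 3. The true limit may be higher, since Smarcc1 sums 4 circRNAs and a listed 0 of each may hold 1 read. By edgeR, unadjusted p was 0.00199 against APAP and 0.00242 against control, and adjusted p was 0.468 and 0.439. Its main ring, shown above, held 58.9% of its reads.

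Setd3, which methylates a histidine of actin, had 8, 6 and 7 reads in APAP and 0 in all 6 other libraries, from 1 circRNA. Its unadjusted edgeR p was 0.036 for dmPGE2+APAP against APAP and 0.059 for APAP against control. Baz1a, the ISWI partner in the ACF complex, had 13, 7 and 5 reads in dmPGE2+APAP, 3, 0 and 0 in APAP, and 0, 0 and 0 in control. Brwd3, a bromodomain protein, had 0 in every dmPGE2+APAP library, 0, 22 and 0 reads in APAP and 7, 8 and 0 in control. None of these 4 scarce hosts passed, and each rests on 73 reads or fewer. Setd3 reached 5 reads in 3 libraries through APAP alone, and Baz1a through dmPGE2+APAP alone. Smarcc1 and Brwd3 reached that through APAP and control only. Entry thus depended on the groups where they were high, so their p-values and non-overlapping ranges are no evidence of a difference.

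At the level of single rings, 0 of 162 circRNAs passed in APAP against control (0.139% of 4331 circRNAs tested did), 0 in dmPGE2+APAP against APAP (0.0693%), 0 in dmPGE2+APAP against control (0.115%) and 0 in the joint test (0.208%). Unadjusted edgeR p was under 0.05 for 5 (3.09%, against 5.17% over all), 8 (4.94%, against 3.81%), 4 (2.47%, against 4.34%) and 3 (1.85%, against 2.66%) of them. The lowest adjusted p were 0.291, 0.899 and 0.960 in the 3 pairwise comparisons. The first belonged to Smarca2 novel_circ_0006045, exons 2 to 4, with 24, 16 and 0 reads in dmPGE2+APAP, 0, 0 and 0 in APAP, and 21, 24 and 0 in control. It was seen in 4 of 6 libraries of the other groups and in no APAP library. It entered the test through those groups alone, so lower in APAP was the only direction open to it against them.

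Within a host, reads were shared unequally between rings. Among the 63 hosts with at least 2 circRNAs, 41 had circRNAs that shared a start site (the acceptor) and 39 had circRNAs that shared an end site (the donor), and 9 hosts with at least 10 circRNAs held 161 of the 412. In Chd2, the ring of exons 3 to 5 held 69.0% of reads and 5 rings began at exon 3, with 75.6% together. Its share of Chd2 reads was 67.6%, 71.0% and 78.5% in dmPGE2+APAP, 62.3%, 71.8% and 68.5% in APAP, and 63.4% and 69.0% in control 1 and 2. Arid1b had 92.3% of its reads at the acceptor of exon 2, with the ring of exons 2 to 4 at 71.7%. The leading Ash1l ring held 57.6%, and in Nsd2 1 ring of exons 3 and 4 held 93.0%.

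Ehmt1 spread its reads more evenly. The ring of exons 16 to 18 held 37.1%, the ring of exons 2 and 3 held 14.3% and the ring of exons 2 to 4 held 11.7%. The leading ring's share of Ehmt1 reads was 34.7%, 35.1% and 41.6% in dmPGE2+APAP, 34.2%, 33.6% and 38.3% in APAP, and 37.1% and 42.0% in control 1 and 2. Smarca2 had separate leading rings at exons 6 to 9 (36.6%) and exons 24 and 25 (27.3%). For Chd2 and for Ehmt1 the leading ring's share overlapped between all 3 groups.

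**Figure D4:**
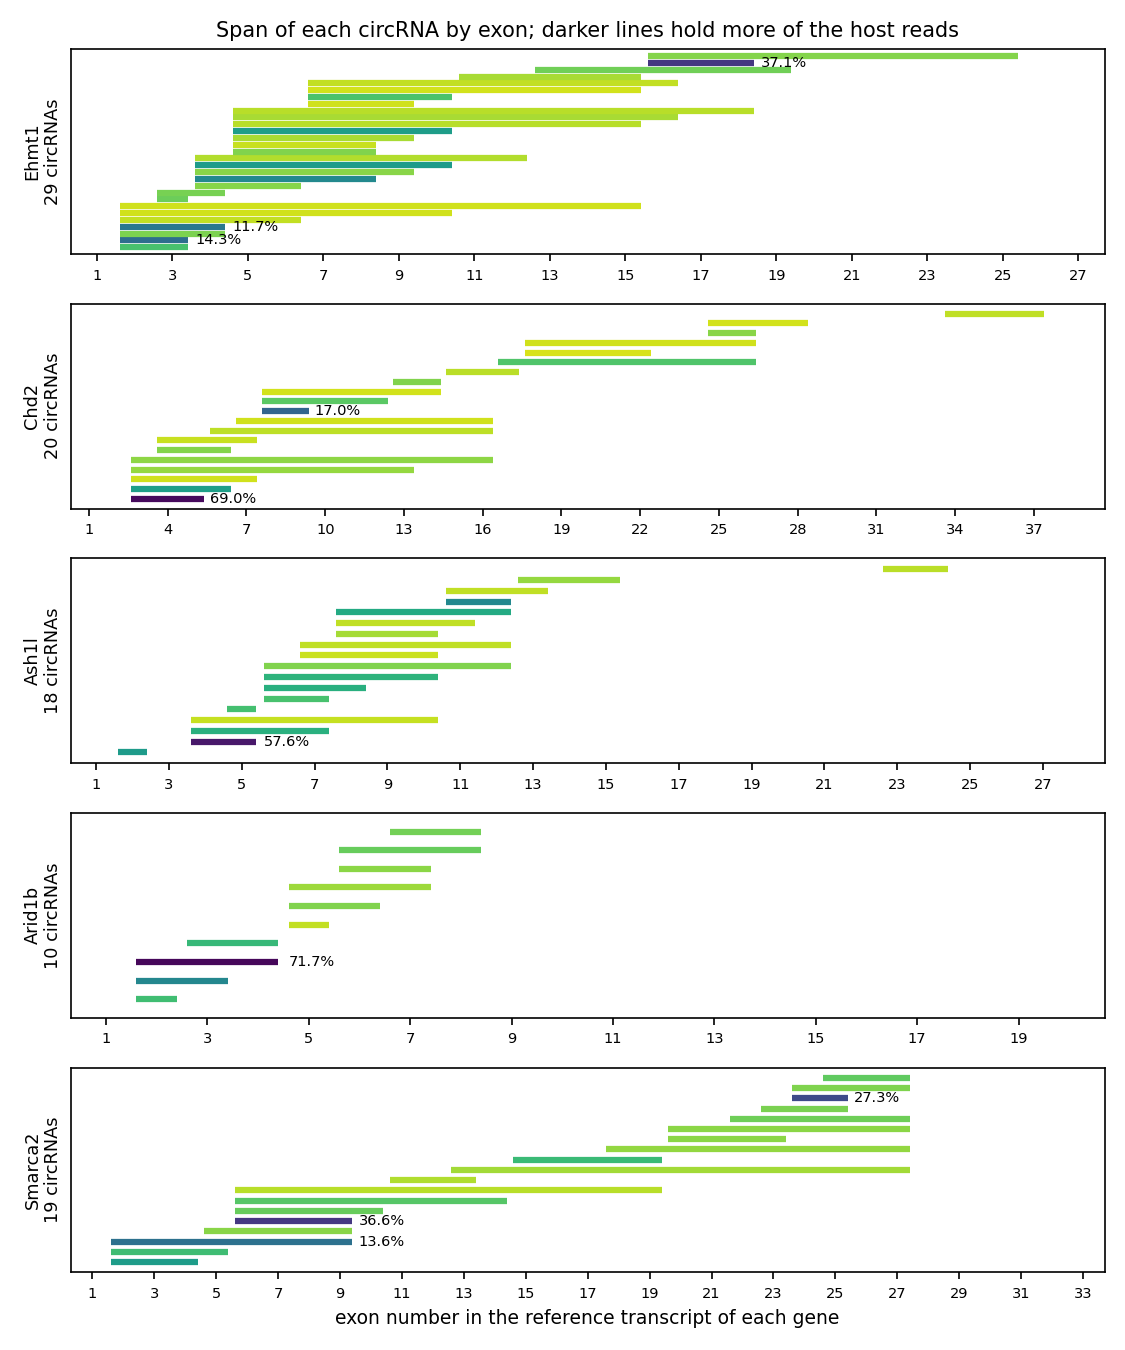
Span of each circRNA by exon number (x axis) in 5 hosts, 1 line per circRNA, drawn for circRNAs with both ends at exons of the host's reference transcript (29 in Ehmt1, 20 in Chd2, 18 in Ash1l, 10 in Arid1b and 19 in Smarca2). Darker lines hold more of the host's reads, and percentages mark those with at least 10% of them. Leading rings start at exon 3 in Chd2, exon 4 in Ash1l, exon 2 in Arid1b, and lie both near the start and further downstream in Ehmt1 and Smarca2.

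Some rings share one end and lie close together at the other. Ehmt1 novel_circ_0008347 and novel_circ_0008346 share a donor, and their acceptors lie at positions 24887069 and 24887066 of chromosome 2, with 516 and 74 reads. Ezh2 mmu_circ_0001471 and mmu_circ_0001472 share an acceptor, and their donors lie at positions 47576536 and 47576563 of chromosome 6, with 870 and 199 reads. Whether the caller split or merged reads between such sites was not tested. The sums per host hold the reads of both sites, less any that went unlisted because the smallest count above 0 is 2.

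The size of a ring depends on which exons it keeps, which junction reads do not show. For 382 exonic circRNAs with both ends in 1 GENCODE transcript, the median ring held 4 exons and 561.5 bases, against 4 exons and 498 bases for 9851 circRNAs of the whole table, if every annotated exon between the ends is kept. The deposited table lists fewer exons: a median of 2 exons and 289 bases, against 2 exons and 298 bases over the whole table. Its list had as many exons as annotated between the ends for 31.2% of the 382 (33.9% over all) and reached both ends for 58.9% (65.8% over all), so the 2 sources differ in which set has the larger median length. The flanking introns had medians of 6285 bases upstream and 4712 downstream, against 6532 and 4876. The host transcripts had more exons, with a median over circRNAs of 24 against 18. Rings started at exon 2 in 60 of 382 (15.7%), against 28.4% over all, and 87.2% lay inside the coding sequence, against 85.2%. These are descriptions, since circRNAs of 1 host share sites.

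Linear transcripts leave reads at a ring's ends too, and so can other rings of the host that run across those ends. The table lists such non-junction reads for each circRNA in the libraries where the ring was seen. The circular share is 2 times the back-splice reads over that number plus the other reads. For 50 chromatin regulator circRNAs with usable values in the 8 libraries, the median ring had a circular share of 58.9%, and the medians ran from 19.2% to 93.4%. The highest were Ezh2 mmu_circ_0001471 (85.6% to 97.3% over the libraries) and Chd2 novel_circ_0013193 (86.7% to 94.9%), and the lowest Arid1b novel_circ_0005096 (11.5% to 40.5%) and Kdm5c novel_circ_0015036 (7.5% to 41.3%). The 2 Arid1b rings start at the same exon and differ in their end: the ring of exons 2 to 4 had a median of 87.8% and that of exons 2 and 3 of 19.2%. The end of the shorter ring lies inside the longer one. How many of the other reads there come from the longer ring was not tested.

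Summed over the 50 circRNAs, the circular share was 63.7%, 65.1% and 64.5% in dmPGE2+APAP, 61.1%, 64.9% and 53.9% in APAP, and 70.5% and 68.0% in control 1 and 2. Both control libraries lay above the other 6. Over all 1125 circRNAs with usable values the shares were 62.7%, 61.2% and 63.2% in dmPGE2+APAP, 61.1%, 64.2% and 54.8% in APAP, and 67.5% and 66.4% in control 1 and 2, so the same order holds for the whole table. At the 19 circRNAs with values in all libraries, control 3 had 9.50%, against 64.3% to 78.3% in the others, so it was left out of this comparison.

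Ring by ring, the circular share of APAP lay below that of control 1 and 2 without overlap for 16 of 50 circRNAs (32.0%, against 21.9% over all 1125) and above it for 0 (5.33% over all). In dmPGE2+APAP against control 1 and 2, 13 were lower (26.0%, against 20.9% over all) and 2 were higher (6.04% over all). In dmPGE2+APAP against APAP, 5 of the 50 were higher (7.73% over all) and 1 was lower (4.44% over all). Lower shares in both treated groups were thus common over the whole table too, and the gap between 32.0% and 21.9% was not tested.

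Arid1b novel_circ_0005097 was among the rings without overlap in all 3 comparisons and was singled out after its values were seen. Its circular share was 88.3%, 89.3% and 87.4% in dmPGE2+APAP, 68.5%, 79.3% and 70.7% in APAP, and 90% and 90.9% in control 1 and 2. Behind these values are 189, 146 and 221 back-splice reads with 50, 35 and 64 other reads in dmPGE2+APAP, 88, 163 and 111 with 81, 85 and 92 in APAP, and 243 and 244 with 54 and 49 in control 1 and 2. The other reads at its sites were thus higher in every APAP library than in the other 5 of these 8. Nsd3 novel_circ_0013561 was without overlap in the same 3 comparisons and directions. Its circular share was 46.0%, 55.1% and 49.4% in dmPGE2+APAP, 43.1%, 45.1% and 21.1% in APAP, and 84.0% and 78.7% in control 1 and 2. Arid5b novel_circ_0000456 and Arid1b novel_circ_0005096 also had APAP below both other groups without overlap, with control 3 left out. For dmPGE2+APAP against APAP, with 3 libraries against 3, an exact permutation test could not go below 0.10. Against control 1 and 2, with 3 libraries against 2, the lowest possible p is higher. No test was made.

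**Figure D5:**
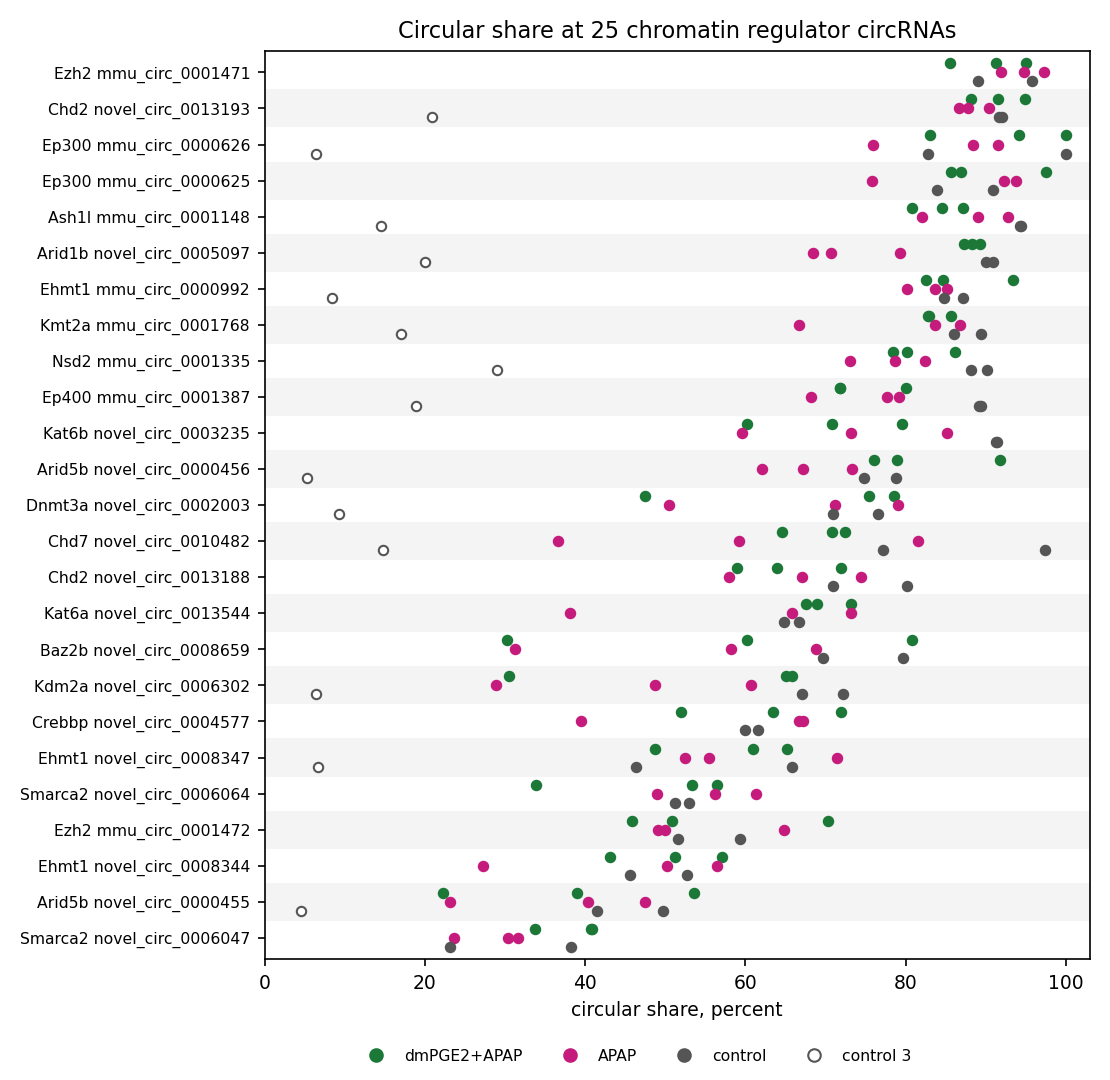
Circular share in percent (x axis) at the 25 most abundant chromatin regulator circRNAs with usable values in the 8 libraries, ordered by their median. Each point is 1 library, coloured by group, with control 3 open where it has a value. Shares run from under 40% to over 90% between rings, and control 3 lies far below the rest. Control 3 aside, Arid1b novel_circ_0005097 and Arid5b novel_circ_0000456 are among the rings with their 3 APAP libraries below the others.

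Chromatin genes outside the name families were counted the same way. Of a list of 178 such genes (among them Asxl, Cdyl, Ncoa, Prdm and Ino80 members), 100 had circRNAs and 77 hosts were tested. Their summed level was 32058 to 33892 CPM in dmPGE2+APAP, 33128 to 35298 CPM in APAP and 26823 to 32166 CPM in control, the lowest being control 3. In each of the 3 comparisons, 0 of the 77 passed upward and 0 downward (0.34%, 0.127% and 0.17% of all hosts passed in APAP against control, dmPGE2+APAP against APAP and dmPGE2+APAP against control). Unadjusted edgeR p was under 0.05 for 2, 4 and 2 of the 77 in the same order, against 5.27%, 2.72% and 4.2% of all hosts. The medians of the log2 fold change were 0.16, 0.02 and 0.12. Asxl2, a partner of the deubiquitinase BAP1, and Cdyl, a chromodomain protein, led the list at means of 2968 and 2949 CPM over the 8 libraries, between Chd2 and Ash1l.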

How the data were processed

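Back-splice junction read counts were deposited by the authors as whole numbers per circRNA and library. The smallest count above 0 is 2, so a 0 may hold 1 read. TPM deposited by the authors is the count times 1 constant per library, in the 6 libraries compared, and was used only as a check. The submitters' processing notes name HISAT2, GRCm38 and mm10 but no step they served. Which program called the circRNAs is not given in the sources used here. Libraries came from 1 µg of total RNA, per the labels' protocols. Counts were summed per host gene, and CPM computed over each library's total. CircRNAs of more than 1 host were not counted for any single host but summed as gene groups of their own.

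CircRNAs or hosts that reached 5 reads in 3 or more of 9 libraries entered edgeR 4.0.16 (R 4.3.3). It used the quasi-likelihood F test, TMM, all 9 libraries, 1 mean per group, Benjamini-Hochberg over all features and threshold 0.05. The step was tested on simulated data. For the 95% intervals, the standard error was the absolute log2 fold change over the square root of F, with a t quantile. No fold is given against a group listed at 0. Alternatives used DESeq2 1.42.0, limma 3.58.1 (voom), other scalings and filters, left-out libraries and a replicate block. Deposited starts were raised by 1, and 94.9% of 10506 exonic circRNAs then had both ends at exon ends of GENCODE M21. Lists of non-junction reads that had been turned into a single number, which happens where every later entry has 3 digits, were not used, leaving 9559 circRNAs and 385 of the members. Limits from a count of 0 use 3 reads and cover counting error only.

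Hosts are named by a rule: up to 4 per role with the highest mean CPM, any that passed, and the 4 with the smallest p per comparison, with their leading circRNAs. Others are named where a count of non-overlapping ranges is given, after their values were seen. Members, roles and lists were chosen with earlier results of these data known.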

Additional observations from a re-analysis of the deposited data

How the results depend on the processing

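Counts of chromatin regulator hosts and circRNAs past the threshold were 0 in 122 of 128 combinations of comparison and alternative: no TMM scaling, DESeq2 size factors, no filter, a filter in 2 libraries, DESeq2, limma-voom, each library left out in turn, only the groups compared, and the replicate block. The exceptions were circRNAs under weaker filters: with no filter, 1 passed in dmPGE2+APAP against APAP, 1 in dmPGE2+APAP against control and 2 in the joint test, and with the filter in 2 libraries again 1, 1 and 2. These were Kat6b mmu_circ_0000505 in all and Ep300 novel_circ_0004103 in the joint test, rings with reads in 2 libraries only that the filter in 3 libraries removes. Their lowest adjusted p by edgeR was 3.6e-05 (dmPGE2+APAP against APAP, filter in 2 libraries). Values of the hosts and circRNAs named by rule, which leave out these 2 rings, kept their side of the threshold in 3400 of 3400 cases. They kept their sign in 94.1%, and their lowest adjusted p was 0.135 (Smarcc1, dmPGE2+APAP against APAP, DESeq2). A replicate block was possible for dmPGE2+APAP against APAP only, since the numbers of the control columns are not tied to samples. Same-numbered libraries did not deviate together (correlations -0.018, 0.006 and -0.022), and with the block 0 hosts and 0 circRNAs of the members passed. The 95% interval stayed within 2-fold for 8 to 13 hosts per comparison, and for 10 to 16 without control 3, where 1 read equals 229 CPM. How much depth and how much variation between libraries widen the intervals was not tested.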

Other observations

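Some rings were abundant in 1 library and listed at 0 in another. Of 87 chromatin regulator circRNAs with at least 20 reads in some library other than control 3, 36 (41.4%) were listed at 0 in another of those 8, close to the 40.2% over all circRNAs of the table. Kat6b mmu_circ_0000505 had 85 reads in APAP 2 and 84 in control 2, and 0 in dmPGE2+APAP and all remaining libraries. Ep300 novel_circ_0004103 had 34 and 29 reads in dmPGE2+APAP 2 and 3, and 0 in all others. These rings were singled out after their values were seen.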
